A study of Mus musculus with 8 samples.

Results

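Ribosome density, the number of ribosome footprints on an mRNA relative to the amount of that mRNA, was measured in mouse embryonic stem cells that had received a control siRNA and so kept their LIN28A. For each RefSeq transcript it was taken as the log2 ratio of footprint to poly(A) counts in the control, each scaled to the total of its column, and centred on the median transcript. Transcripts with at least 50 counts in each column entered, 7495 of the 7936 in the footprint table (94.4%). No measured ratio was used to choose them.

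The cells were the embryonic stem cell line A3-1, grown in serum-containing medium with LIF, a cytokine that holds stem cells undifferentiated. Cells were taken 48 h after siRNA against luciferase (siLuc), a target that mouse cells lack, or against Lin28a (siLin28a). Ribosome profiling sequences the mRNA fragments that ribosomes shield from nuclease, and poly(A) RNA-seq sequences fragments of polyadenylated RNA. There was 1 library of each kind per siRNA, and no genetic change was given for any group. No spread between cultures can therefore be had, no test was made, and the intervals below are 95% Clopper-Pearson intervals that cover counting error only.

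Initiation sets how often ribosomes enter most coding sequences, and elongation sets how long they stay, so footprints per mRNA reflect both. Secreted and membrane proteins are made by ribosomes bound to the endoplasmic reticulum (ER), other nuclear-encoded proteins largely by free ribosomes. Some mRNAs carry known brakes or switches in their leaders: upstream open reading frames divert scanning ribosomes, iron-responsive hairpins bind repressor proteins in iron-poor cells, and terminal oligopyrimidine (TOP) tracts place mRNAs of the translation machinery under growth control. LIN28A itself binds let-7 precursors and many mRNAs in pluripotent cells.

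TOP tracts were looked for at the annotated starts of 5513 transcripts matched to the RefSeq promoter table (GRCm38.p6). The sequences below show how varied in density mRNAs with such a start were. Each runs 5′ to 3′ on the sense strand for 25 bases, from 5 before the annotated start, with the tract in capitals: a C followed by at least 4 further C or T, beginning within 5 bases of the start. They are listed from the highest ribosome density to the lowest.
Rpl38, chr11:114668575-114668599, + strand: tcgttCTTTCCCCgttctcttcggt
Rps21, chr2:180257374-180257398, + strand: ccgCCCTCCTgcccaatagtgctgc
Rps15a, chr7:118116128-118116152, - strand: gccatCTTCCCTCgccggtgagtga
Rpl27a, chr7:109519190-109519214, + strand: gCTCCTCCCTTTTCCCTTTCTgcca
Rps6, chr4:86857348-86857372, - strand: cgggCCTCTTTTTCgtgacgcctcc
Rpl12, chr2:32961707-32961731, + strand: gatccgtCTTTTCggctttcggctc
Eif3l, chr15:79075218-79075242, + strand: CTTCTTCCgctctctcccacgggct
Nap1l1, chr10:111473222-111473246, + strand: cgggtCTTTTTTagcgccatctgct
Rpl38 had 16474 footprint and 5244 poly(A) counts and a ribosome density of 1.86, and Rps21 had 13466 and 4756 counts and 1.71. Rps15a (4247 and 2202 counts) stood at 1.15, Rpl27a (20172 and 11752 counts) at 0.99 and Rps6 (16515 and 17866 counts) at 0.09. Rpl12, at -0.26, Eif3l, a subunit of initiation factor eIF3, at -0.67, and Nap1l1, a histone chaperone, at -0.72 lay below the median transcript although their annotated starts carry the tract. Poly(A) tallies of the ribosomal proteins are uncertain, as set out with that family. With the exon counts of a separate poly(A) table as the denominator, Nap1l1 stood above the median at 1.25, as did Rpl12.

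A tract of this kind stood at any of the gene's annotated starts for 23.7% of the matched transcripts. Taken start by start, which is not a like measure, it stood at 18.3% of all 32851 starts in the table. The shares and medians below count a transcript by any start of its gene. Among cytosolic ribosomal proteins the tract was found for 28 of 57 (49.1%), and among other mRNAs known as TOP mRNAs for 7 of 15 (46.7%). The median density was -0.02 for the 1308 transcripts with the tract and -0.02 for the 4205 without it. Within the ribosomal proteins the medians were 0.90 for 28 with it and 0.72 for 29 without. Annotated starts may differ from those used in these cells.

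The siLuc footprint column held 7570209 counts and its poly(A) column 7189717, and the siLin28a columns 5980673 and 9198613. All 11 embryonic stem cell markers examined were present in the siLuc poly(A) library, at 38.1 to 863 RPKM (reads scaled to exon length and library total). Of 10 fibroblast markers, 6 were listed, with a summed level of 158 RPKM, of which Vim made up 143, and Col1a1 and Col1a2 stood at 0.28 and 0.05. Of 12 markers of differentiated lineages, 11 were listed, with a summed level of 31.4 RPKM, of which Tubb3 made up 25.9, and Gata6 stood at 0. The stem cell markers summed to 3300 RPKM.

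Ribosome density spanned a wide range. The 5th percentile was -1.77 and the 95th 1.80 on the log2 scale, an 11.9-fold range, and the quartiles were -0.70 and 0.73. A transcript is called dense below where it lay at least 2-fold above the median and sparse where it lay at least 2-fold below. By this rule 1332 of 7495 transcripts (17.8%) were dense and 1283 (17.1%) sparse, 34.9% in all. More than 4-fold from the median lay 248 transcripts on the high side and 244 on the low side. The median width of the counting interval was 0.45.

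**Figure D1:**
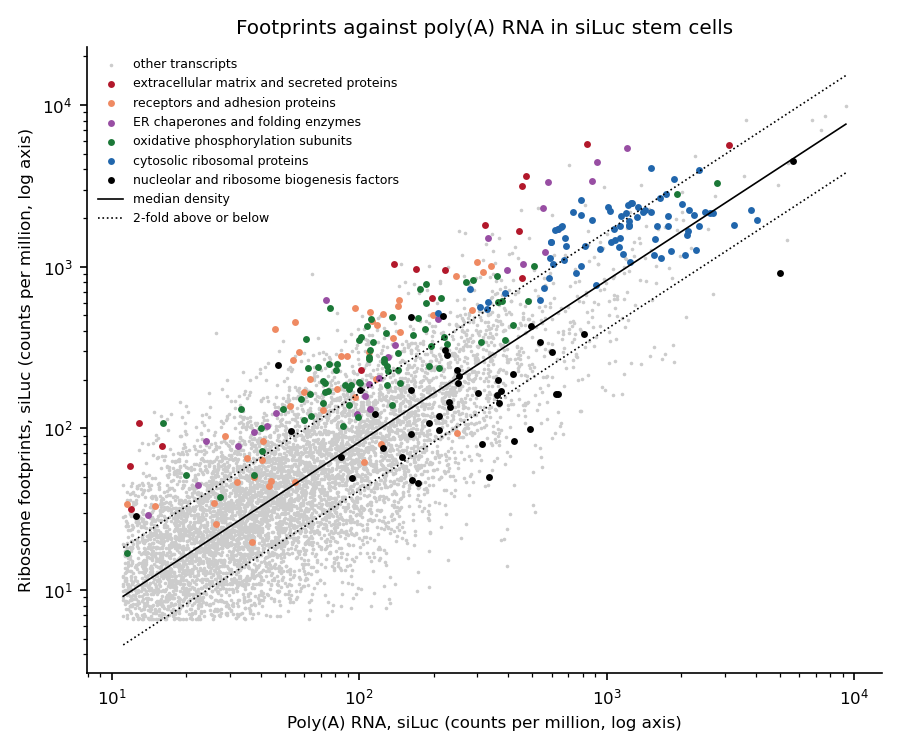
Footprints against poly(A) RNA for the 7495 transcripts in siLuc cells, both scaled to the column total (CPM) on log axes, with 6 gene lists in colour. The solid line is the median density and the dotted lines are 2-fold above and below it. Extracellular matrix, receptor and ER chaperone mRNAs lie mostly above the upper dotted line.

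The count minimum bears on the sparse side. All 441 transcripts left out had fewer than 50 footprints, since every transcript in the table has at least 80 poly(A) counts; 391 of them would have been sparse and 0 dense. Transcripts just inside the minimum, with 50 to 54 footprints, had a median density of -1.23 (n = 81), and those just outside, with 45 to 49, of -1.32 (n = 82). A member could be sparse only with 116 or more poly(A) counts, which 6917 members had, and of these 18.5% were sparse and 16.9% dense.

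The highest densities belonged largely to proteins of the cell surface and the extracellular matrix. Notch2, a receptor for membrane-bound ligands (mm9, chr3:97817461-97954290), had 3129 footprints on 327 poly(A) counts and a density of 3.46 (3.30 to 3.63). Its paralog Notch1 (chr2:26313422-26359342) had 3423 footprints on 394 poly(A) counts and a density of 3.32 (3.17 to 3.48). Pdia4, a disulfide isomerase of the ER, had 4704 footprints on 527 poly(A) counts and a density of 3.36 (3.23 to 3.50). The intervals of these 3 overlap. Among named transcripts, chosen with at least 200 poly(A) counts and without histones and ribosomal proteins, the 10 highest went on with Hspg2, the basement membrane proteoglycan perlecan, at 3.24, Sparc, a secreted matrix glycoprotein, at 3.19, and Cox7a2, a small subunit of cytochrome c oxidase, at 3.15. Cd164, a sialomucin, and Grn, a secreted growth factor precursor, both stood at 3.09, Col18a1, a basement membrane collagen, at 3.08, and Lamc1, the laminin gamma chain, at 3.07. Of these 10, Cox7a2 alone is a mitochondrial protein. Cd164 stood at 1.34 with the exon counts of the separate poly(A) table as denominator.

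The mRNAs with the lowest densities encode mostly large nuclear and cytoskeletal proteins. Ankrd11, a chromatin regulator (chr8:125407221-125565897), had 157 footprints on 2753 poly(A) counts and a density of -3.93 (-4.17 to -3.69), which is 15.2-fold below the median transcript. Aspm, a spindle pole protein, had 154 on 2681 and -3.92, and Mki67, the proliferation antigen Ki-67 (chr7:142881471-142908062), 229 on 3702 and -3.81 (-4.01 to -3.62). Zc3h13, part of the machinery that methylates adenosines in mRNA, stood at -3.91, Myo18a, an unconventional myosin, at -3.84, Pdcd11, a ribosome biogenesis factor, at -3.77, Rev3l, the catalytic subunit of DNA polymerase zeta, at -3.72, and Chd6, a chromatin remodeller, at -3.62. Csnk1g2, a casein kinase, had a density of -3.76 on a coding sequence of only 1329 bases. The lowest of all, the ferritin light chain gene Ftl2, had 107 footprints and 2834 poly(A) counts and a density of -4.52 (-4.81 to -4.24), but its poly(A) count was 8.77 times the exon count that the separate poly(A) table gives it. Its value is uncertain, and with the exon count it was -0.97. Ferritin light chain has near-identical copies in the mouse genome.

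Density was lower in mRNAs with longer coding sequences. Coding lengths were known for 6921 members, and the rank correlation across transcripts was -0.53, given as a description, since all points share the same libraries. In quintile 1, with a median coding length of 582 bases, the median density was 0.87, and 41.9% of transcripts were dense and 1.73% sparse. The medians of quintiles 2, 3 and 4 were 0.23, -0.10 and -0.48. In quintile 5, with a median coding length of 3820.5 bases, the median density was -0.87, and 7.51% were dense and 45.3% sparse. Other features moved less with density: the rank correlation was -0.11 for non-coding length, 0.08 for the mRNA level in RPKM, -0.25 for the share of the transcript that is coding, -0.19 for the poly(A) count and 0.13 for LIN28A CLIP counts over untreated poly(A) counts. In the quintile of transcripts with most LIN28A CLIP per poly(A) count, 457 of 1384 were dense, against 160 of 1385 in the lowest.

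**Figure D2:**
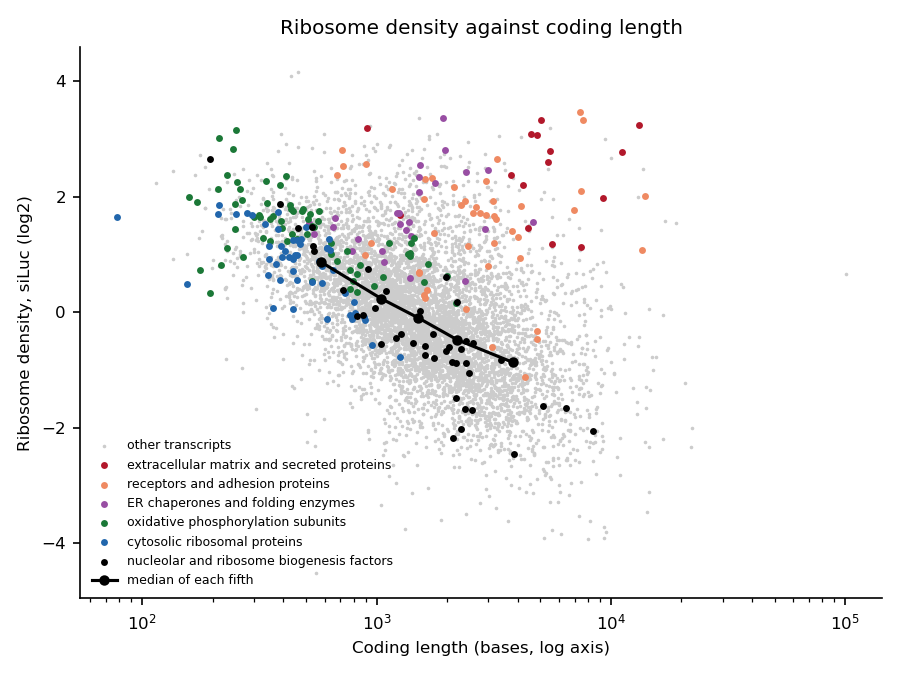
Ribosome density in siLuc cells (log2) against coding length (bases, log axis) for 6921 transcripts, with 6 gene lists in colour and the median of each quintile as joined black points. The quintile medians go from 0.87 to -0.87 while matrix proteins and receptors lie high at long coding lengths.

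What counts as a poly(A) read in the denominator bears on these values. In transcripts with 200 or more exon counts, the footprint table's poly(A) count was 48.2% of the exon count where the coding sequence made up a median of 27.1% of the transcript, and 94.5% where it made up 86.5%. The poly(A) counts of the footprint table thus moved with the coding share of the transcript. In 411 members the poly(A) count was more than 2 times the exon count and values of those named below are marked as uncertain. Among ribosomal proteins this held for 72 of 78. Tallies far below the exon count occur too. With the siLuc exon counts as the denominator, 16 of 113 dense or sparse calls among named transcripts were lost and 27 of 187 named transcripts changed sides of the median. Where this touches a transcript described below, its value with the exon counts is given. Calls gained with the exon counts were not counted. Only the denominator was changed in this setting and footprints were not tallied anew. Where the tallies differ widely, the ratio can therefore set unlike counts against each other.

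Extracellular matrix and secreted proteins were dense in 16 of 16 mRNAs, with a median of 2.57. Col4a1, a basement membrane collagen, had 812 footprints on 93 poly(A) counts and a density of 3.33 (3.02 to 3.66). Lamc1 had 43580 footprints on 6000 poly(A) counts and stood at 3.07 (3.03 to 3.11), and its partner chains Lamb1, Lama5 and Lama1 at 2.79, 2.77 and 1.98. These chains assemble into laminin, the main adhesive protein of the basement membrane. Nid1 and Nid2, which link laminin to collagen, stood at 2.38 and 2.20. Fibronectin (Fn1), with 42524 footprints on 22320 poly(A) counts, was the lowest of the group at 1.14 (1.11 to 1.16), next to the proteoglycan agrin (Agrn) at 1.19. Coding lengths in this group had a median of 5010 bases, and relative to transcripts of like coding length the median was 3.20.

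Receptors and adhesion proteins held 33 dense and 1 sparse mRNA of 46, with a median of 1.70. Among receptors, besides Notch1 and Notch2, Lifr, the receptor for LIF, had 2242 footprints on 409 poly(A) counts and a density of 2.66 (2.51 to 2.82), and its signalling partner Il6st had 2243 on 784 and 1.72 (1.60 to 1.84). The Wnt receptor Fzd7 stood at 2.32, the stem cell factor receptor Kit at 2.28, the insulin receptor Insr at 1.84 and the ephrin receptor Epha2 at 1.68. The receptors were uneven: the Hedgehog receptor Ptch1, with 711 footprints on 1779 poly(A) counts, was sparse at -1.12 (-1.24 to -0.99; -0.70 with the exon counts), and Bmpr2, Lrp5 and Lrp6, receptors or coreceptors for BMP and Wnt ligands, stood at -0.60, -0.46 and -0.32. Adhesion proteins were dense in 15 of 18, with a median of 1.93, among them the tetraspanins Cd81 at 2.81 and Cd9 at 2.39, integrin Itgb1 at 1.93 and E-cadherin (Cdh1) at 1.83. Integrin Itgb5, at 0.06 (-0.16 to 0.27), was the lowest adhesion protein.

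The enzymes and chaperones that fold proteins inside the ER were dense in 23 of 26, with a median of 1.55 and none sparse. Hspa5, the abundant ER chaperone BiP, had 25326 footprints on 4161 poly(A) counts and a density of 2.81 (2.76 to 2.86). The lowest were Dnajc10, an ER reductase, at 0.54 and Ero1l, the oxidase that supplies disulfide bonds, at 0.60. By contrast none of 23 mRNAs for the chaperonin and other, mostly cytosolic, chaperones was dense or sparse. The highest of the 23 was the mitochondrial Hspe1, at 0.85 with an uncertain tally. The list had a median of 0.21, and the abundant Hsp90ab1 had 52958 footprints on 52693 poly(A) counts and stood at 0.21 (0.20 to 0.23). The chaperonin subunits Cct3 and Cct5 stood at -0.61 (0.09 with the exon counts) and -0.51.

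Solute carriers, the membrane transporters for nutrients and ions, were dense in 45 and sparse in 1 of 78, with a median of 1.13 over the 78 of 80 that met the count minimum. Their median was 0.85 with the siLuc exon counts as denominator and 0.57 with the untreated ones. Many dense calls were lost with the siLuc exon counts. Slc31a1 went from 2.06 to 0.29, Slc23a2 from 1.91 to 0.73 and Slc7a1 from 1.77 to 0.56. The amino acid transporter Slc38a4, with 5924 footprints on 1193 poly(A) counts, and the zinc transporter Slc39a4, with 1511 on 303, both stood at 2.52, and Slc30a9, another zinc transporter, was sparse at -1.11 (-1.43 to -0.80). Proteins named TMEM for their membrane-spanning segments were dense in 27 and sparse in 1 of 65. The TMEM median was 0.90, and 0.41 with the untreated exon counts. Dense calls were lost here too with the siLuc exon counts, such as that of Tmem167, which went from 1.33 to -0.19. Tmem97 was the highest at 2.84 (2.66 to 3.02) and Tmem183a the lowest at -1.46 (-1.69 to -1.24). Of 22 enzymes and regulators of cholesterol synthesis, many of them ER membrane proteins, 9 were dense and none sparse. Dhcr7, which catalyses the last step of the pathway, had 1805 footprints on 298 poly(A) counts and stood at 2.80 (2.63 to 2.99), while the cytosolic or peroxisomal mevalonate kinase Mvk stood at -0.39.

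Matrix proteins, receptors and adhesion proteins, ER chaperones and solute carriers together were 166 mRNAs, of which 117 (70.5%) were dense and 2 sparse, beside 17.8% and 17.1% of all transcripts. These counts use the footprint table's poly(A) tallies, and some of the dense calls, many of them of solute carriers, were lost with the siLuc exon counts. Length does not order these mRNAs as it orders transcripts at large. The rank correlation of density with coding length was -0.10 across the 46 receptors and adhesion proteins, -0.12 across 76 solute carriers and 0.44 across the 26 ER chaperones. In quintile 5 of coding length, 104 mRNAs were dense, and 37 of these were among the 47 such mRNAs in the 4 lists. The 10 densest there were Notch2, Col4a1, Notch1, Hspg2, Col5a1 (3.19), Col18a1, Lamc1, the neural adhesion molecule Ncam1 (3.05), carboxypeptidase Cpd (3.04) and the matrix protein Frem2 (3.0), each a secreted or membrane protein.

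**Figure D3:**
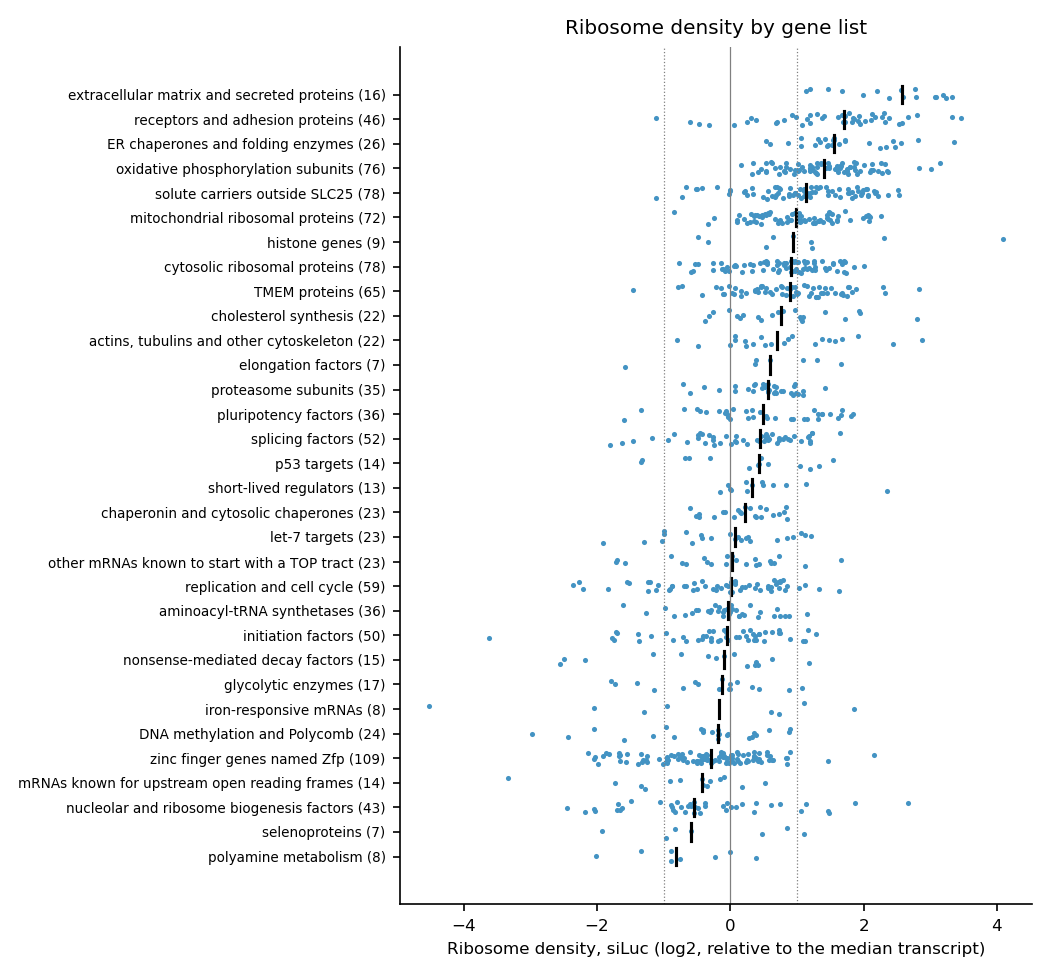
Ribosome density in siLuc cells (log2, relative to the median transcript) of each member of the lists with 7 or more members; points are transcripts, black bars list medians, the number in brackets is the number of members, and dotted lines mark 2-fold. Medians run from 2.57 for matrix and secreted proteins to -0.82 for polyamine metabolism, and most lists span the median transcript. The polyamine median was 1.62 with the siLuc exon counts as denominator.

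Subunits of the respiratory chain and ATP synthase were dense in 56 of 76, with a median of 1.40, and none was sparse. Complex I, the NADH dehydrogenase, had 29 dense of 35, complexes II to IV 17 of 24, and ATP synthase 10 of 17. Ndufa1, a membrane subunit of complex I, had 814 footprints on 116 poly(A) counts and stood at 3.02 (2.73 to 3.31), and Uqcrq, of complex III, at 1.44. The lowest were the long complex I subunit Ndufs1 at 0.16 (0.08 to 0.23) and the very short complex III subunit Uqcr10 at 0.33 (0.20 to 0.46). These mRNAs are short, with a median coding length of 438 bases, and relative to transcripts of like length the median was 0.59 with 16 of 68 dense, where 14% of all transcripts with a coding length were dense.

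Mitochondrial ribosomal proteins were dense in 36 of 72, with a median of 0.99. Mrpl34, with 689 footprints on 186 poly(A) counts, stood at 2.10 (1.86 to 2.34), and Mrps9, with 590 on 1225, was the lowest at -0.85 (-0.99 to -0.71). Within bins of coding length the median was 0.23 with 4 of 67 dense, so most of the distance from the median transcript was no longer seen. Within these lists short mRNAs were the denser ones: the rank correlation with coding length was -0.60 over 68 respiratory subunits and -0.64 over 67 mitochondrial ribosomal proteins.

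Cytosolic ribosomal proteins had a median of 0.91, with 31 of 78 dense and none sparse, 17 of 46 in the large subunit and 14 of 32 in the small. Rpl38, described above, stood at 1.86 (1.81 to 1.90), and Rpl4, with 14793 footprints on 29147 poly(A) counts, was the lowest at -0.77 (-0.80 to -0.74; 0.54 with the exon counts). Coding lengths were known for 50 of 78 (64.1%), too few to centre by, so exon length, known for all, was used. Within bins of exon length the median was -0.05, with 2 dense and 9 sparse, beside 15.3% and 12.9% of all transcripts. Rpl38 had 10.2 times as many poly(A) counts in the footprint table as exon counts in the poly(A) table and is uncertain, as are most of this family. The 6 members without such a gap had a median of 0.47. Ribosomal proteins have many processed pseudogenes of like sequence, and whether reads were shared with these was not tested.

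**Figure D4:**
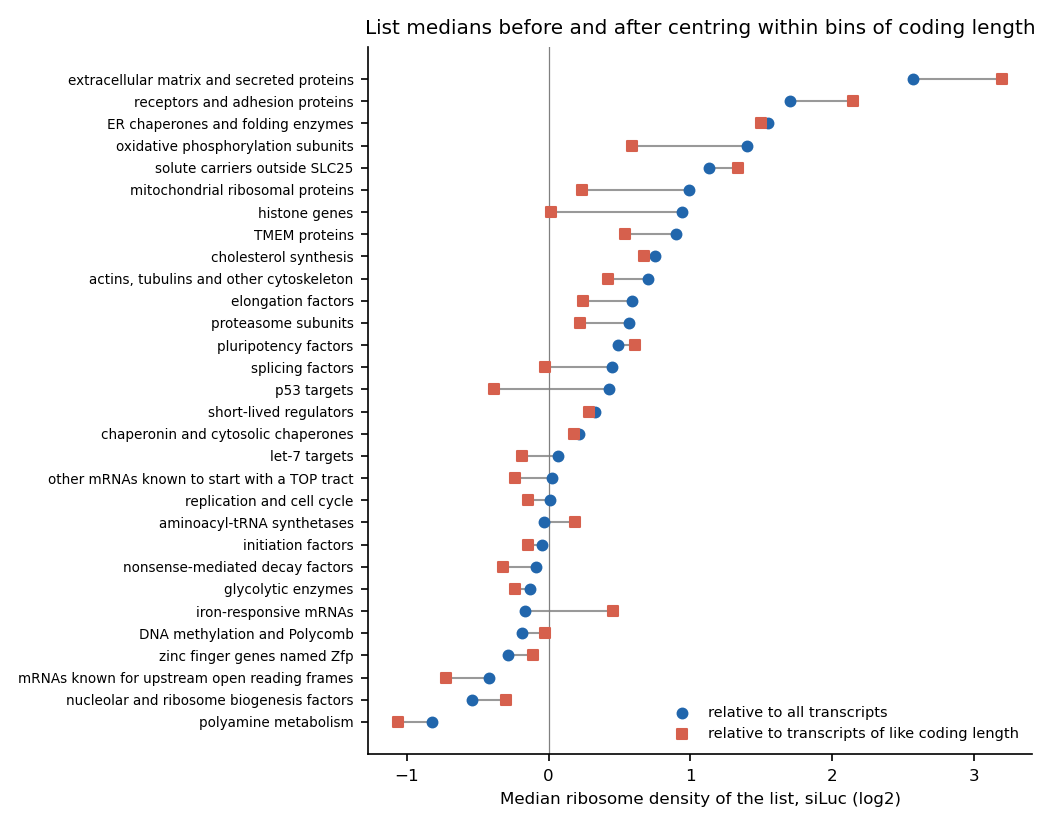
Median ribosome density of each list in siLuc cells (log2) relative to all transcripts (blue circles) and relative to transcripts of like coding length (red squares), for lists of 7 or more in which at least 80% had a coding length. The median went from 1.40 to 0.59 for respiratory subunits and from 2.57 to 3.20 for matrix and secreted proteins.

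Elongation factors had a median of 0.59, with 3 of 7 dense and 1 sparse, and of 1.99 with the siLuc exon counts as denominator. Eef1d, a subunit of the exchange factor, stood at 1.67 (1.61 to 1.72). Eef2, the translocase, with 11142 footprints on 38299 poly(A) counts, stood at -1.58 (-1.61 to -1.54), or -0.75 with the exon counts. Eef1a1, which delivers aminoacyl-tRNA, had the most footprints of any transcript, 74531 on 66454 poly(A) counts, and stood at 0.37. This value is uncertain since its exon count was only 6620, and with the exon count it stood at 4.11. The 23 mRNAs outside the ribosome that are known for TOP tracts had a median of 0.02, with 2 dense and 3 sparse. Pabpc1, the poly(A)-binding protein, with 5139 footprints on 19315 poly(A) counts, stood at -1.70 (-1.75 to -1.66; -0.68 with the exon counts), and initiation factor Eif4b, with 1932 on 7307, at -1.71 (-1.79 to -1.64). Tpt1, at 0.02, and Npm1, at -0.05, lay at the median, but their poly(A) counts were 30.5 and 4.78 times their exon counts. With the exon counts Tpt1 stood at 5.37 and Npm1 at 2.62.

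Initiation factors held 4 dense and 8 sparse members of 50, with a median of -0.05; 16.0% were sparse, beside 17.1% of all transcripts. Eif5b, the subunit joining factor, with 256 footprints on 3616 poly(A) counts, stood far below the rest at -3.61 (-3.80 to -3.43), and Eif3c at -1.77, while the eIF4E inhibitor Eif4ebp1 stood at 1.29 and Eif1, whose poly(A) tally is uncertain, at 1.16. Aminoacyl-tRNA synthetases, which charge tRNAs, stayed closer together: of 36, 1 was dense and 2 were sparse, with a median of -0.04. The mitochondrial Yars2 was highest at 1.15 (0.94 to 1.36). Nucleolar and ribosome biogenesis factors had a lower median, -0.54, with the footprint table's poly(A) counts. Of 43, 6 (13.95%) were dense and 10 (23.26%) sparse, beside 17.8% and 17.1% of all transcripts. The median was -0.14 with the siLuc exon counts as denominator, -0.00090 with the untreated ones and -0.30 within bins of coding length. It was -0.61 within bins of exon length and -0.87 in the siLin28a libraries. Nucleolin (Ncl), with 6912 footprints on 35983 poly(A) counts, stood at -2.17 (-2.21 to -2.14), and the ribosome assembly GTPase Bms1 at -2.46 (-2.62 to -2.30). The short Nop10, of the pseudouridine synthase complex, was the highest at 2.66 (2.49 to 2.83).

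Among mRNAs known for upstream open reading frames, none of the 14 that met the count minimum was dense and 4 (28.6%) were sparse. Of all transcripts 17.8% were dense and 17.1% sparse. The median of the 14 was -0.42. Another 3 (Ppp1r15a, Slc35a4 and Smox) had under 50 footprints. Atf4, the transcription factor of the amino acid and ER stress response (chr15:80085614-80087971), had 159 footprints on 1848 poly(A) counts and stood at -3.33 (-3.58 to -3.10), 10.1-fold below the median transcript. On 1050 coding bases it was lower still relative to transcripts of like length, at -3.63. Ibtk, with 323 footprints on 1236 poly(A) counts, stood at -1.73 (-1.91 to -1.55), Azin1, the antizyme inhibitor, at -1.34 (-1.58 to -1.10), and Srf, a transcription factor of growth and cytoskeletal genes, with 71 on 199, at -1.28 (-1.69 to -0.88). The others lay nearer the median with the footprint table's poly(A) counts. Ifrd1 stood at -0.91, the p53 ligase Mdm2 at -0.30, Eif5 at -0.15 (0.22 with the exon counts) and Cdkn1b at 0.17 (-0.58 with the exon counts). Klf9 stood at -0.43 and Ppp1r15b, a subunit of the eIF2 alpha phosphatase, at -0.35. With the siLuc exon counts both were sparse, Klf9 at -2.02 and Ppp1r15b at -1.001. Mat2a was the highest at 0.52 (0.42 to 0.62), and dense at 1.17 with the siLuc exon counts. Where ribosomes sat within these mRNAs was not analysed here.

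The 8 mRNAs of iron handling, most of them known for iron-responsive elements, lay at both ends, with 2 dense and 3 sparse. Among the sparse is Ftl2 at -4.52, whose tally is uncertain and which stood at -0.97 with the exon counts. Fth1, the ferritin heavy chain that stores iron, had 952 footprints on 4552 poly(A) counts and stood at -2.05 (-2.15 to -1.95), one of the lowest values among short coding sequences, at 549 bases. The transferrin receptor Tfrc, which takes iron up, had 7694 footprints on 2453 poly(A) counts and was dense at 1.86 (1.79 to 1.92). These intervals are far apart. The iron regulatory protein Aco1 stood at -1.30, Ireb2 at -0.95, the heme synthesis enzyme Alas1 at 0.73 and the iron importer Slc11a2 at 1.11 (0.88 to 1.35; 0.87 with the exon counts). Other short coding sequences with low density were those of Sap30l, a corepressor subunit, with 53 footprints on 303 poly(A) counts and a density of -2.31 (-2.76 to -1.88), and of the phosphatase Ptp4a2, with 81 on 446 and -2.26 (-2.62 to -1.91).

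In polyamine metabolism none of 8 members was dense and 2 were sparse, with a median of -0.82. This direction turned with the poly(A) tally. The median was 1.62 with the siLuc exon counts and 1.80 with the untreated ones, with the footprint counts left unchanged. In 5 of the 8 the poly(A) count was over 2 times the exon count. Odc1, ornithine decarboxylase, the first enzyme of the pathway, had 1923 footprints on 9003 poly(A) counts and stood at -2.02 (-2.09 to -1.95). With the exon counts of the poly(A) table, where it had 1071, its density was 1.47. Amd1 (-0.76), Oaz1 (0.38) and Paox (-0.88) were tallied high too, and with the exon counts Amd1 stood at 3.87, Oaz1 at 4.47 and Paox at 1.77. Spermidine synthase Srm had 1666 footprints on 1925 poly(A) counts and stood at the median, -0.00 (-0.10 to 0.09), without such a gap; with the exon counts it stood at 0.49.

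Pluripotency factors had 13 dense and 2 sparse of 36 and a median of 0.49. Of the core factors, Pou5f1 (Oct4) had 8523 footprints on 10297 poly(A) counts and stood at -0.07 (-0.11 to -0.03; 0.59 with the exon counts), Sox2 had 3114 on 4051 and stood at -0.17 (-0.24 to -0.11), and Nanog had 5070 on 2721 and stood at 1.10 (1.04 to 1.17). Nanog was thus denser than Pou5f1 and Sox2 beyond counting error. In the wider network Tdgf1, a membrane-anchored Nodal coreceptor, stood at 1.85 (1.78 to 1.91), the zinc finger factor Sall4 at 1.82 (1.72 to 1.91), Dppa3 at 1.67 and the secreted factors Gdf3 and Fgf4 at 1.61 and 1.37; with the exon counts Fgf4 stood at -0.20. The nuclear receptor Esrrb stood at 0.67 (0.60 to 0.74; -0.27 with the exon counts) and Klf4 at -0.36 (-0.54 to -0.19). The DNA dioxygenase Tet1 was the lowest at -1.60 (-1.72 to -1.48), followed by the cell cycle transcription factor Mybl2 at -1.33 (-1.40 to -1.27; -0.40 with the exon counts).

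Lin28a, the siRNA target, had 898 footprints on 398 poly(A) counts in siLuc cells and a density of 1.38 (1.21 to 1.55). In siLin28a cells it had 182 footprint and 223 poly(A) counts and a density of 0.80, with both counts lower than in siLuc cells. Its coding sequence is 630 bases long, and the poly(A) table gives it 2646 exon counts, so the footprint table's poly(A) count was 0.15 times the exon count. With the exon counts as denominator its density was -0.94, on the other side of the median. The sign of its density therefore depends on which poly(A) tally is used.

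Of 24 DNA methylation and Polycomb genes none was dense and 5 (20.8%) were sparse, beside 17.1% of all transcripts, with a median of -0.19 and of -0.02 within bins of coding length. The maintenance methyltransferase Dnmt1 had 434 footprints on 3929 poly(A) counts and stood at -2.97 (-3.12 to -2.83), and Jarid2, a cofactor of Polycomb complex 2, at -2.43 (-2.56 to -2.31). The E3 ligase Rnf2 and Phc1, both of Polycomb complex 1, were the highest at 0.89 each. Replication and cell cycle genes had 4 dense and 11 sparse (18.6%) of 59 and a median of 0.01. The sparse ones were largely replication proteins, 10 of 34, such as the clamp loader Rfc1 at -2.27, while topoisomerase Top2a, with 2030 footprints on 12025 poly(A) counts, stood at -2.36 (-2.43 to -2.29). Some of these sparse calls were lost with the siLuc exon counts as denominator. Mcm2 went from -1.24 to -0.96 and Mcm7 from -1.11 to 0.41, while Rfc1 stayed sparse at -2.15. Within bins of coding length 2 of the 34 replication proteins were sparse, beside 10.6% of all transcripts.

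Zinc finger genes named Zfp, most of them transcription factors, were dense in 2 and sparse in 22 of 109 (20.2%, beside 17.1% of all transcripts), with a median of -0.29. Within bins of coding length the median was -0.11 and 15 of 98 were sparse. Another 21 of the 130 in the table had under 50 footprints, so these counts leave out the family members with fewest footprints. Zfp106, with 1360 footprints on 6862 poly(A) counts, was lowest at -2.13 (-2.21 to -2.05), and the short Zfp593 highest at 2.16 (1.84 to 2.49). Zfp217 stood at 1.47 (1.32 to 1.62) on a coding sequence of 3126 bases. Of 15 nonsense-mediated decay factors, which remove mRNAs with early stops, 1 (6.7%) was dense and 4 (26.7%) sparse, beside 17.8% and 17.1% of all transcripts. Smg6, the endonuclease of the pathway, stood at -2.55 (-2.82 to -2.29) and Smg5 at -2.49 (-2.71 to -2.28), while Magoh, a core protein of the exon junction complex, stood at 1.17 (1.02 to 1.33).

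Splicing factors had 8 dense (15.4%, beside 17.8% of all transcripts) and 4 sparse of 52 and a median of 0.45, which was -0.02 within bins of coding length and -0.19 in the siLin28a libraries. Prpf8, the scaffold of the spliceosome's core, had 3715 footprints on 14990 poly(A) counts and stood at -1.81 (-1.86 to -1.75). The 4 CDC-like kinases, which phosphorylate SR splicing factors and are known for transcripts that keep introns in the nucleus, were all below the median: Clk4 at -1.73, Clk2 at -1.67, Clk1 at -1.30 and Clk3 at -0.58. Their footprints on poly(A) counts were 117 on 447, 164 on 603, 448 on 1275 and 166 on 286. How many of these poly(A) counts came from nuclear RNA was not tested.

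In glycolysis 1 of 17 mRNAs (5.9%) was dense and 4 (23.5%) were sparse, beside 17.8% and 17.1% of all transcripts. The median was -0.13, and 1.05 over 15 mRNAs with the siLuc exon counts as denominator. In 7 of the 17 the poly(A) count was over 2 times the exon count. Hexokinase Hk2 stood at -1.79 (-1.95 to -1.63) and phosphofructokinase Pfkp at -1.73 (-1.83 to -1.63), both regulated steps of the pathway, and the enolase Eno1 at 1.07 (0.88 to 1.26). Gapdh, with 14915 footprints on 13687 poly(A) counts, stood at 0.33, with an uncertain tally, and at 4.34 with the exon counts. Proteasome subunits were close to each other, with 4 dense and none sparse of 35 and a median of 0.57. In the cytoskeleton list 8 of 22 were dense. Beta-actin (Actb) had 31978 footprints on 5048 poly(A) counts and stood at 2.87 (2.83 to 2.91), and tubulin Tuba1b at -0.80 (-0.93 to -0.68; 0.28 with the exon counts). The thymosin Tmsb4x, which binds actin monomers, stood at 2.45 (2.29 to 2.61); its poly(A) count was 0.25 times its exon count, and with the exon count it stood at 0.87. The histone variant H2afx had 6851 footprints on 462 poly(A) counts and a density of 4.1 (3.96 to 4.24). Only Chchd2, a mitochondrial protein with 2929 footprints on 189 poly(A) counts, exceeded it, at 4.16 (3.95 to 4.38), named after its value was seen. The poly(A) count of H2afx was 0.25 times its exon count, and with the exon count it stood at 2.50. H2afx is also known to be made as an mRNA without a poly(A) tail, and how much of it was missing from the poly(A) counts was not tested.

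The siLin28a pair of libraries, another condition and not a replicate, ordered the transcripts much alike. Over the 6963 members with at least 50 counts in each siLin28a column, the rank correlation across transcripts was 0.91. Of the 1332 dense transcripts 1194 (89.6%) were dense there too, and of the 1033 sparse ones with enough counts 894 (86.5%) were sparse; none was called in the opposite direction. Of all 6997 transcripts with 50 counts in each siLin28a column, 25.2% were dense and 22% sparse. The densities were more spread there, with a standard deviation across transcripts of 1.38 against 1.07. The list medians in siLuc and siLin28a were 2.57 and 3.41 for matrix proteins, 1.70 and 2.53 for receptors and adhesion proteins, 1.55 and 2.41 for ER chaperones and 0.91 and 1.02 for ribosomal proteins. For Actb the values were 2.87 and 2.05, for Atf4 -3.33 and -2.80, and for Eno1 1.07 and -0.39. With 1 library each, a difference between the conditions cannot be told apart from one between library preparations.

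**Figure D5:**
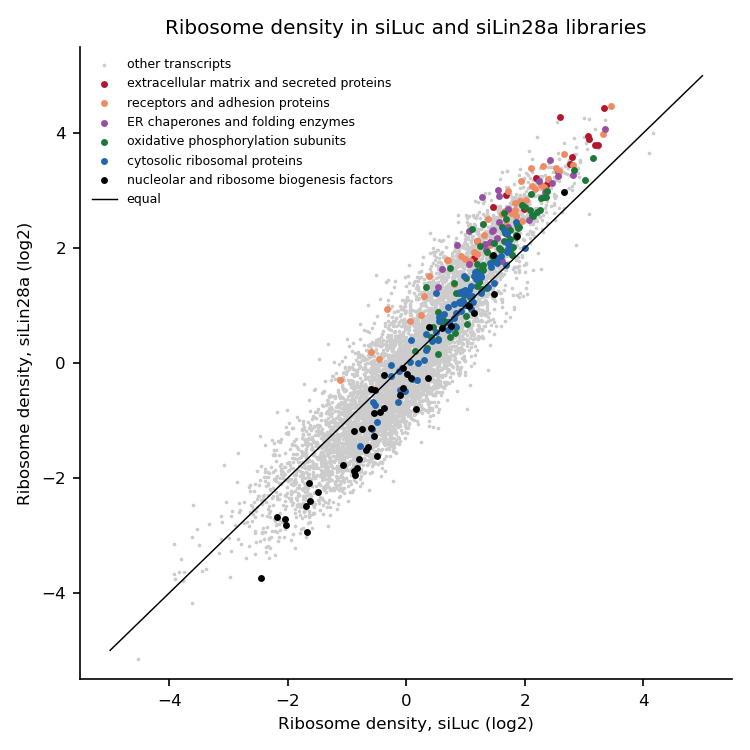
Ribosome density (log2, each pair centred on its own median) in siLin28a against siLuc cells for 6963 transcripts, with 6 gene lists in colour and the line of equal values in black. The rank correlation is 0.91, and the medians of the matrix, receptor and ER chaperone lists lie above the line, at 3.41, 2.53 and 2.41 in siLin28a.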

How the data were processed

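Whole-read counts per RefSeq transcript were deposited by the authors for ribosome footprints and poly(A) RNA, 1 library per assay and siRNA. GSNAP, bedtools and the mouse build mm9 are named, without roles, per the submitters' processing notes; how reads were assigned to transcripts is not given in the sources used here. Per transcript, the authors' deposited log2 density for siLuc equalled the log2 ratio of the counts less a constant of 0.01. RPKM values of the siLuc poly(A) library were deposited by the authors, per the file headers, per exon length and column total. Ribosome density was computed from the deposited counts as log2(footprints per total / poly(A) per total) for transcripts with at least 50 in each, minus its median, with Python 3.11.15, numpy 2.4.6, pandas 2.3.3 and scipy 1.17.1, and was tested on simulated data. Coding lengths came from the deposited CLIP table, and centring by length used 10 bins. Another 28 per-sample columns were left unused.

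The members and gene lists were chosen with earlier results of these data known. Named were the 10 highest and 10 lowest transcripts with 200 or more poly(A) counts, the 2 highest, 2 lowest and middle member of each list, and a set of always-named genes, of which Lin28b, Ftl1 and Gas5 have no row in the table used; others named in a list illustrate its members and were picked with their values in view. Symbols are as in the files. Some results are not reported here.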

Additional observations from a re-analysis of the deposited data

How the results depend on the processing

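No paired analysis was possible because there was 1 library per assay and siRNA, so there was no replicate to leave out. Values here are median densities of the lists unless a transcript is named, and the cause of each shift was not tested. A pseudocount of 0.5 moved neither the number of dense or sparse transcripts by over 1.5 times nor a list median, relative to all transcripts, by more than its members' median counting error. Not centring shifts every density by the same -0.28. List medians relative to all transcripts therefore cannot change, and this setting does not test them. Without centring fewer transcripts were dense and more sparse, each by less than 1.5 times, and 159 of 191 named transcripts moved by more than their counting error. The planned centring by protein length was not run, as no protein table was used here; centring by coding or exon length and leaving out inflated tallies were chosen after seeing the data.

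With at least 200 counts in each column 689 transcripts were dense and 691 sparse of 4492, and within bins of coding length 734 of 6921 were sparse. The minimum of 200 gave 0.75 for cytosolic ribosomal proteins, 1.23 for respiratory subunits, 0.69 for mitochondrial ribosomal proteins, 1.39 for ER chaperones, 2.41 for matrix proteins, 0.32 for pluripotency factors, -0.16 for replication and cell cycle, -0.71 for nucleolar factors and -0.40 for polyamine metabolism. The minimum of 10 gave 0.98 for cytosolic ribosomal proteins and -0.69 for mRNAs with upstream reading frames.

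Dividing by the siLuc exon counts of the poly(A) table gave 5.15 for cytosolic ribosomal proteins, 1.72 for respiratory subunits, 0.85 for solute carriers, 0.17 for pluripotency factors, -0.14 for nucleolar factors, -0.70 for mRNAs with upstream reading frames and 1.62 for polyamine metabolism. Dividing by the untreated exon counts gave 5.80, 1.79, 0.57, 0.21, -0.00090 and 1.80 for the same lists without the upstream reading frame list, and 1.88 for ER chaperones, 1.47 for receptors and adhesion proteins, 2.48 for matrix proteins and 0.41 for TMEM proteins. These 2 denominators put Odc1 at 1.47 and 1.62, Ccnd2 at -0.32 and -0.10 and Lin28a at -0.94 and -1.34, each on the other side of the median; the untreated one also put Peg10 at -0.056.

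The siLin28a libraries gave 1.02 for cytosolic ribosomal proteins, 1.91 for respiratory subunits, 2.41 for ER chaperones, 2.53 for receptors and adhesion proteins, 3.41 for matrix proteins, 2.00 for solute carriers, 1.74 for TMEM proteins, 0.13 for pluripotency factors, -0.30 for replication and cell cycle, -0.87 for nucleolar factors, -0.94 for mRNAs with upstream reading frames and -0.49 for polyamine metabolism, and put Eno1 at -0.39.

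Bins of coding length gave -0.087 for the 50 cytosolic ribosomal proteins with a known length, 0.59 for respiratory subunits, 0.23 for mitochondrial ribosomal proteins, 2.15 for receptors and adhesion proteins, 3.20 for matrix proteins, 0.54 for TMEM proteins, 0.61 for pluripotency factors, -0.15 for replication and cell cycle, -0.30 for nucleolar factors, -0.73 for mRNAs with upstream reading frames and -1.06 for polyamine metabolism. Bins of exon length gave -0.054, 0.65, 0.34, 1.97 and 2.98 for the first 5 of these, 1.39 for solute carriers and -0.21 for replication and cell cycle. Without transcripts whose tallies disagreed, cytosolic ribosomal proteins stood at 0.80 and pluripotency factors at 0.32, and without tallies over 2 times the exon count at 0.47 and 0.37.

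Depth limits the sparse side most, since a transcript with few poly(A) counts cannot both be sparse and reach 50 footprints.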

Other observations

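Short-lived regulators, whose mRNAs and proteins turn over fast, held 2 dense and 0 sparse members of 13, with a median density of 0.33; of all transcripts 17.8% were dense and 17.1% sparse. The differentiation inhibitor Id3 had 509 footprints on 115 poly(A) counts and stood at 2.35 (2.06 to 2.66), and the immediate early gene Ier2 at 1.14 (1.00 to 1.28; 0.39 with the exon counts of the poly(A) table). The apoptosis inhibitor Mcl1, at 0.33 (-0.50 with the exon counts), was the middle member, and the AP-1 factor Jund was the lowest at -0.16 (-0.41 to 0.09). Among 14 p53 targets 4 (28.6%) were dense and 2 (14.3%) sparse, and the median of 0.42 was -0.39 within bins of coding length: the cell cycle inhibitor Cdkn1a stood at 1.33 (0.98 to 1.69; 0.36 with the exon counts), Phlda3 at 1.55 (1.18 to 1.93; 0.72 with the exon counts) and Ccng1 at -1.33 (-1.50 to -1.15).

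Of 23 mRNAs known as targets of let-7, the microRNA family whose precursors LIN28A binds, 3 were dense and 3 sparse (13.0% each, below the shares of all transcripts), with a median of 0.07. Cyclin Ccnd2 had 355 footprints on 189 poly(A) counts and stood at 1.12 (0.86 to 1.38; -0.32 with the exon counts). The nuclease Dicer1, which cuts microRNA precursors, had 712 on 2012 and stood at -1.29 (-1.42 to -1.17), and Fndc3b had 62 on 269 and stood at -1.91 (-2.33 to -1.51). Among 7 selenoproteins, which read a stop codon as selenocysteine, 1 was dense and 1 sparse (14.3% each): Selm had 184 footprints on 99 poly(A) counts and stood at 1.10 (0.74 to 1.47), and Sephs2 had 223 on 976 and stood at -1.92 (-2.14 to -1.71). Peg10, a retrotransposon-derived gene read through a ribosomal frameshift, had 1036 on 571 and stood at 1.07 (0.92 to 1.22; 0.12 with the exon counts).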
